A study of Mus musculus with 16 samples.

Results

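Cytochrome P450s, flavin monooxygenases, carboxylesterases, epoxide hydrolases and aldehyde oxidases carry out phase I metabolism, the step that adds or exposes a reactive group on drugs, toxins, steroids, fatty acids and bile acid precursors. The gene set was chosen by symbol: probes annotated with a single gene symbol that starts with Cyp, Fmo or Ces and a digit, or with Ephx or Aox, or is Por, probes of the same symbol averaged, and Cyp4b1 and Cyp27a1 not included. This gave 33 genes of 9669 on the array, read from 35 probes, and 2 of them (Cyp2d26 and Cyp51) had 2 probes each. Por, the reductase that passes electrons to microsomal P450s, had no probe with that single symbol and so gave no values. Another 8 probes carried a phase I symbol together with other symbols and were not analysed. The set held 24 P450 genes, 5 carboxylesterases, 2 epoxide hydrolases, 1 aldehyde oxidase and 1 flavin monooxygenase.

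The study set the kidney against the liver in male wildtype mice of the inbred strain C3HeB/FeJ, aged 105 days with a tolerance of 5 days. On 7 two-channel cDNA arrays, called kidney arrays here, RNA from the left kidney of a single mouse was hybridised together with a pool of 5 livers (3 arrays of mouse 1, 3 of mouse 2 and 1 of mouse 3). On 9 liver arrays, RNA from the dorsal liver lobe of the same 3 mice was hybridised together with a pool of 5 kidneys (3 arrays per mouse). No animal was treated, and repeat arrays within a mouse and organ measured a single RNA extract, so the 16 arrays reduce to 6 averages, 3 from each kind of array.

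All values are log2 ratios of kidney over liver, so that a negative value is a lower transcript level in kidney, and both kinds of arrays measure the same ratio. The direction was read from marker genes, because the deposited values ran against the order in which the titles name their samples. As deposited, the 12 hepatocyte markers had medians of 6.16 (kidney arrays) and -5.90 (liver arrays), and the 8 proximal tubule markers had medians of -4.67 and 5.02. After turning, 11 of 12 hepatocyte markers were lower in kidney (Apoa2 did not pass), and all 8 proximal tubule and all 3 loop and distal tubule markers were higher in kidney. The number of probes with a value ranged from 15480 to 19432 per array, of 20419. The 6 arrays of mouse 2 had medians between -1.49 and -1.19 as kidney over liver, while the medians of the other 10 arrays lay close to 0, and results are therefore given with the deposited values and with each array centred on its median. A ratio array compares a gene with itself in the other organ and gives no level that can be compared between genes. In whole organs, fewer cells of a type and less RNA per cell cannot be told apart.

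P450s are haem enzymes of the endoplasmic reticulum and mitochondria that insert an oxygen atom into their substrates. The liver is the main organ of drug oxidation, and hepatocytes carry members of the Cyp1, Cyp2 and Cyp3 families for foreign compounds next to enzymes of bile acid synthesis. The kidney, whose proximal tubule secretes and takes up many drugs and metabolites, has its own P450s of fatty acid and vitamin D metabolism, flavin monooxygenase and epoxide hydrolase. Carboxylesterases hydrolyse esters, amides and lipids, and epoxide hydrolases open the reactive epoxides that P450s form.

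Of the 33 genes, all of which were tested, 16 were lower in kidney, 2 were higher in kidney (Fmo1 and Cyp17a1) and 15 did not pass (limma on the 6 averages, Benjamini-Hochberg adjusted p under 0.05 over 9047 genes). The 16 make 48.5% of the set, where 8.88% of all tested genes were lower in kidney, and the 2 make 6.06%, where 5.56% of all tested genes were higher in kidney. The share with a higher level in kidney was thus close to that of all genes. The median of the 33 estimates was -0.85, against -0.48 over all genes. Among the 16, levels in liver were between 1.74 and 109.9 times those in kidney, 11 were at least 4 times as high in liver, and every array with a value lay below 0. The 15 genes that did not pass had estimates between -0.93 and 0.64, 12 of them negative.

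**Figure D1:**
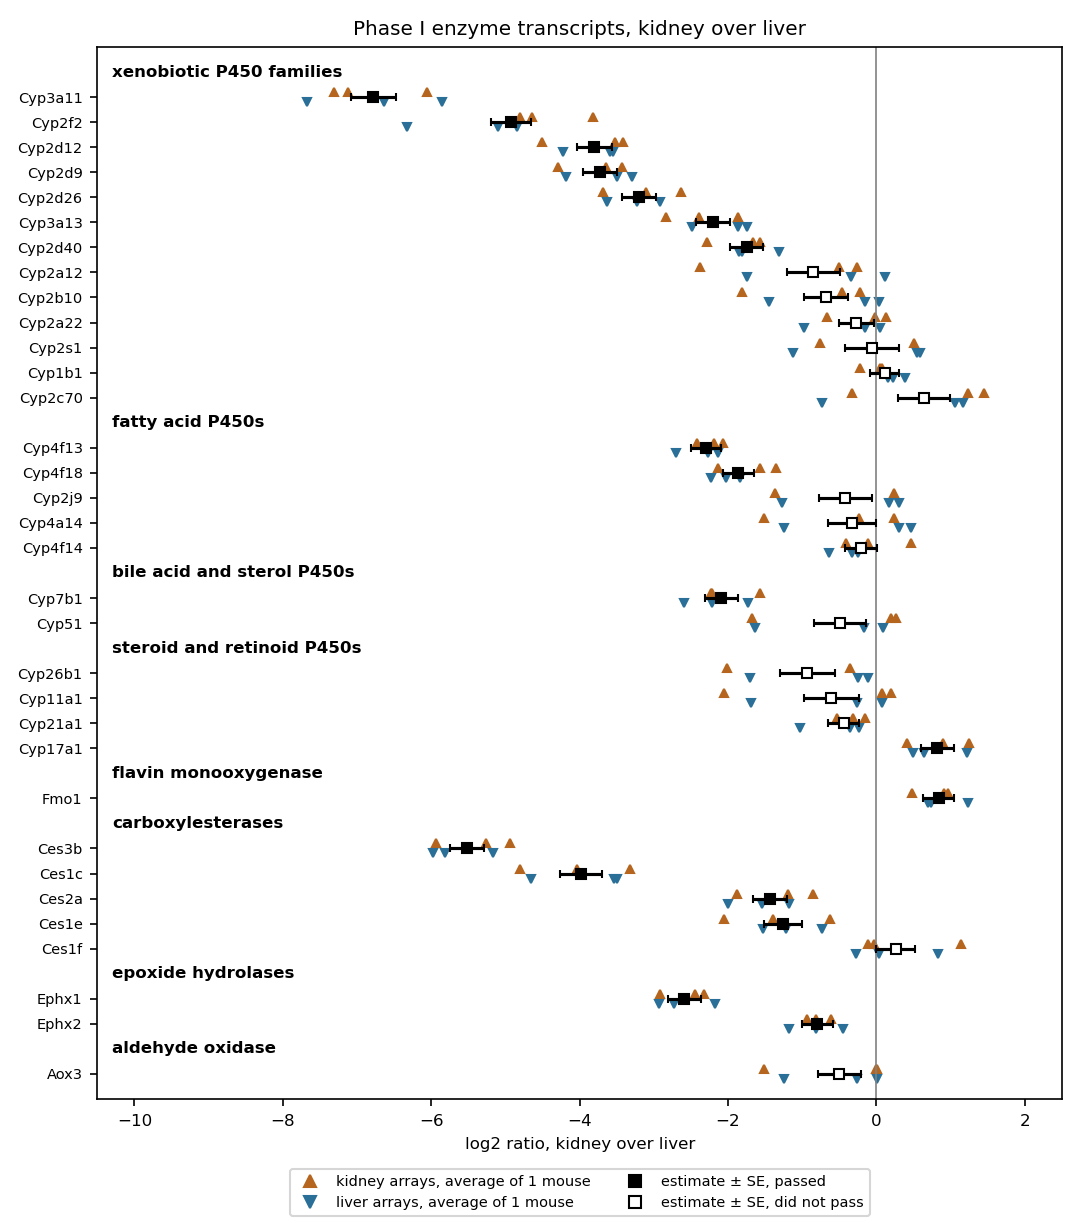
Kidney over liver log2 ratio (x axis) of the 33 phase I enzyme genes, grouped by role (y axis), with the averages of the 3 mice on kidney arrays (upward triangles) and liver arrays (downward triangles) and the limma estimate with its standard error (squares, filled where the adjusted p was under 0.05). Cyp3a11, Ces3b and Cyp2f2 lie farthest on the liver side, and Fmo1 and Cyp17a1 are the filled squares on the kidney side. Fmo1 and Cyp17a1 did not pass with the mouse as a block on the deposited values.

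Centring each array moved the median of all genes to -0.01 and that of the 33 genes to -0.37. With centring, 14 of the 33 were lower in kidney (42.4%, against 12.4% of all genes) and 4 were higher in kidney (12.1%, against 19.5% of all genes). The genes higher in kidney were then Fmo1, Cyp17a1, Cyp2c70 and Cyp2s1, and the 14 were among the 16 above, without Ces1e (adjusted p = 0.0599) and Ephx2 (adjusted p = 0.379). Over all genes the split of calls moved with centring, with 1766 higher and 1126 lower in kidney, against 503 higher and 803 lower as deposited.

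**Figure D2:**
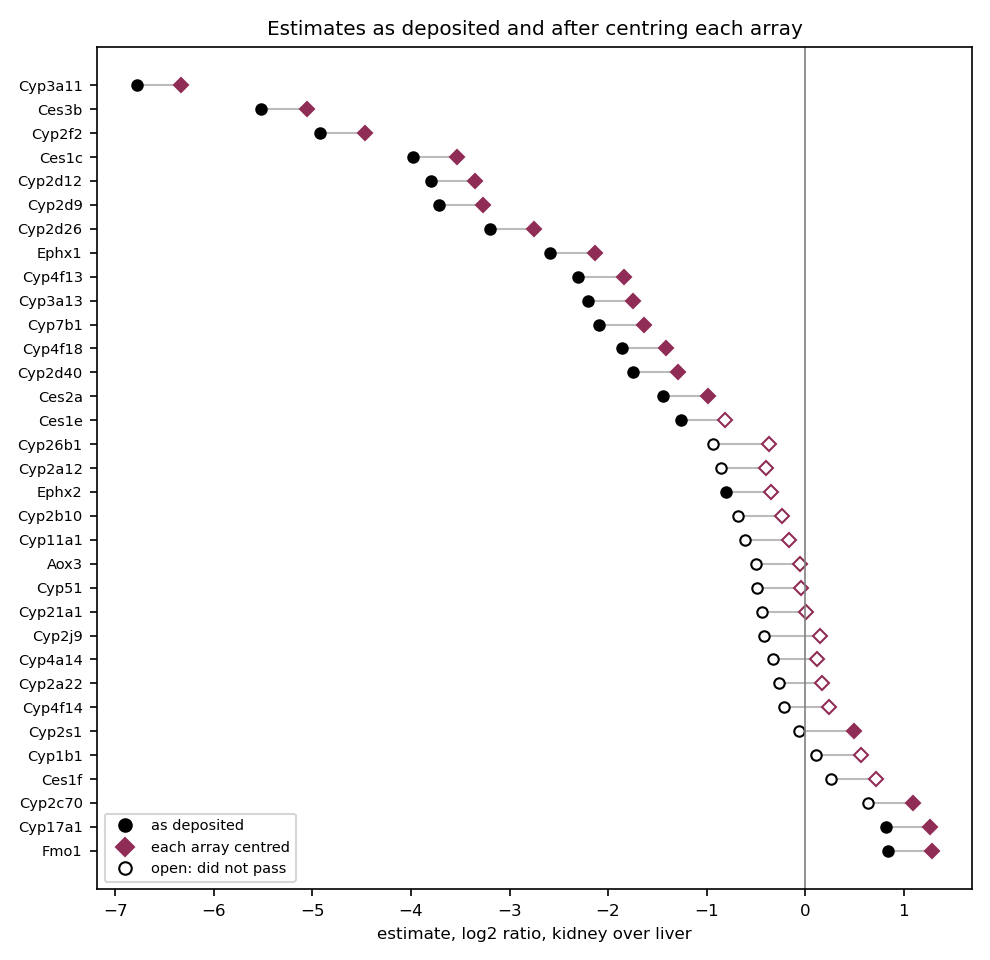
Kidney over liver estimates (x axis, log2 ratio) of the 33 genes (y axis) from the deposited values (circles) and after centring each array on its median (diamonds), with open symbols where the adjusted p was 0.05 or more. The median of the 33 lies at -0.85 as deposited and at -0.37 with centred arrays, and the genes from Cyp3a11 to Ces2a keep filled symbols on the liver side in both.

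Promoter sequences are shown for 5 genes, chosen with their motif matches known. They were Cyp3a11 and Ces3b with the largest differences, Cyp2d9 and Cyp2d26 of the Cyp2d cluster, and Cyp2c70. The Cyp2d genes of this set were all lower in kidney, and other genes of that cluster were not measured here. Cyp2c70 was not called and had a positive ratio in mice 1 and 3. They come from RefSeq's annotation of GRCm38.p6 and run from 250 bases before to 50 bases after the annotated start of transcription, in the direction of the gene. Capitals mark matches to TATAAA (the TATA box), CAAAGTCCA (a site form of HNF4, a liver and kidney nuclear receptor) or GTTAAT (the core of the HNF1 site), and TTTATA and ATTAAC are the reverse strand forms of TATAAA and GTTAAT. The windows lie at chr5:145879805-145880104 on the minus strand (Cyp3a11), chr8:105083505-105083804 on the plus strand (Ces3b), chr15:82452127-82452426 on the plus strand (Cyp2d9), chr15:82794196-82794495 on the minus strand (Cyp2d26) and chr19:40187237-40187536 on the minus strand (Cyp2c70).
Cyp3a11: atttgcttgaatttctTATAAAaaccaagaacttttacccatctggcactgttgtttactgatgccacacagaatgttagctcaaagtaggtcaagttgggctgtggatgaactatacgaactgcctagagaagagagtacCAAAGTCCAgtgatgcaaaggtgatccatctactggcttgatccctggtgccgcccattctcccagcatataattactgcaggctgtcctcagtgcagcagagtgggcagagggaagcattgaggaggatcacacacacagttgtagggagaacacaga
Ces3b: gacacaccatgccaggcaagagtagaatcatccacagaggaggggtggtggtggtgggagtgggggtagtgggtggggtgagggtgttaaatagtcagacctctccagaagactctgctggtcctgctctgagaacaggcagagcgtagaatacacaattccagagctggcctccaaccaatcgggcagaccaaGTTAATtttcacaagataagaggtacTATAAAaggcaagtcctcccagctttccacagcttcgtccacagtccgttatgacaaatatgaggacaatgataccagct
Cyp2d9: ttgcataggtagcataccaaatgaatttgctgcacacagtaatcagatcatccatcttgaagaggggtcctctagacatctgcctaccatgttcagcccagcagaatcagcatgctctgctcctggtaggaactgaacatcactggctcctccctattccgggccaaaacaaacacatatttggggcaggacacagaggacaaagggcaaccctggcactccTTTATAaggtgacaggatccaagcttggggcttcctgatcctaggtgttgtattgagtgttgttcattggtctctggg
Cyp2d26: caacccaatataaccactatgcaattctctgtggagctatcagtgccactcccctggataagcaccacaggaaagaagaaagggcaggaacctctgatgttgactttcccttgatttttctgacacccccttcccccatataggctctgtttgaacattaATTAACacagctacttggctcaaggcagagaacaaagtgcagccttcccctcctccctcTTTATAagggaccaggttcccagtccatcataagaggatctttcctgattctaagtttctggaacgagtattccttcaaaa
Cyp2c70: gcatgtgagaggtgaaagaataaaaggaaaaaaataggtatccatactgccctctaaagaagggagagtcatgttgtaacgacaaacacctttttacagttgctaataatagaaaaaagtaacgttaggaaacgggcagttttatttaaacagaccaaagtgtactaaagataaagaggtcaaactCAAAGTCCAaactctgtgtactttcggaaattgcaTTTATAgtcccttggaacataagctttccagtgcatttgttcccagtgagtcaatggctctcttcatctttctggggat
The TATAAA matches of Ces3b, Cyp2d9, Cyp2d26 and Cyp2c70 began 30, 28, 31 and 29 bases before the start, and that of Cyp3a11 began 234 bases before it. CAAAGTCCA lay 109 bases before the start of Cyp3a11 and 64 bases before that of Cyp2c70. Of 33 genes, 25 had an entry in the promoter table, and both strands were searched. TATAAA was found in 10 of the 25 (40%), 6 of them lower in kidney and 4 not called, against 15.7% of the 27025 genes with a promoter. CAAAGTCCA was found in 2 of 25 (8%), against 0.555% of all, and GTTAAT in 3 of 25 (12%), against 8.24%. TTGCNNAA, a form of the C/EBP site, was found in 6 of 25 (24%), against 12.2%, and 2 of these 6 were lower in kidney while 4 were not called. The motifs were kept from a longer set of strings with their matches known, so the shares are a description of these windows and carry no test. The 8 genes without an entry were Ces1f, Cyp17a1, Cyp21a1, Cyp2d12, Cyp4a14, Cyp7b1, Ephx2 and Fmo1.

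Among the 13 P450s of the families that handle foreign compounds, 7 were lower in kidney and 6 did not pass, with a median of -1.75. Cyp3a11, the main Cyp3a enzyme of mouse liver and a target of the pregnane X receptor, had the lowest ratio of the set. It lay between -7.53 and -6.06 on the kidney arrays with a median of -7.00, and between -7.96 and -3.31 on the liver arrays with a median of -7.04. The mouse averages were -7.31, -7.12 and -6.06 on kidney arrays and -7.68, -5.86 and -6.64 on liver arrays. The ranges of both kinds of arrays overlapped, with a single liver array at -3.31 apart from the rest, and the estimate was -6.78 (SE 0.30, limma adjusted p = 1.9e-06), a level 109.9 times higher in liver. Cyp3a13, a relative on the same chromosome, had a smaller difference, -2.20 (SE 0.23), with averages of -2.83, -2.39 and -1.87 on kidney arrays and -1.87, -2.48 and -1.75 on liver arrays.

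Cyp2f2, known in the mouse for activating naphthalene in lung and liver, had a ratio of -5.22 to -3.68 on the kidney arrays (median -4.84) and of -10.65 to -3.52 on the liver arrays (median -4.93). All 16 values lay below 0, and the estimate was -4.92 (SE 0.27, limma adjusted p = 5.72e-06), 30.3 times higher in liver. Its neighbours on the chromosome did not pass the test. In the GRCm38.p6 gene order, Cyp2a22, Cyp2a12 and Cyp2f2 lie next to each other, and Cyp2a12, an enzyme of bile acid rehydroxylation in mouse liver, had an estimate of -0.85 (SE 0.36, adjusted p = 0.134), while Cyp2a22 had -0.27 (SE 0.24, adjusted p = 0.374). Both had dim probes. Cyp2b10, the classical target of the constitutive androstane receptor, lies in the same gene cluster and had -0.68 (SE 0.30, adjusted p = 0.148).

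The 4 Cyp2d genes of the set lie close together in the gene order, with at most 1 protein-coding gene between neighbours, and all 4 were lower in kidney. Cyp2d9 is known as the male-specific testosterone hydroxylase of mouse liver. Its ratio was -4.29 to -2.96 on the kidney arrays (median -3.66) and -4.22 to -3.25 on the liver arrays (median -3.52), with an estimate of -3.72 (SE 0.23, limma adjusted p = 1.22e-05), 13.2 times higher in liver. Cyp2d12 had -4.51 to -3.31 on the kidney arrays (median -3.44) and -4.40 to -3.20 on the liver arrays (median -3.65), with an estimate of -3.80 (SE 0.24). The ranges of both genes overlapped on both kinds of arrays, and all 16 values of each lay below 0. The estimate of Cyp2d26 was -3.20 (SE 0.23), and its 2 probes gave -3.42 and -2.99. Cyp2d40 differed less, with -1.75 (SE 0.22), 3.36 times higher in liver. The coding sequences of Cyp2d genes are close relatives, and whether a cDNA probe of one also bound RNA of another was not tested.

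**Figure D3:**
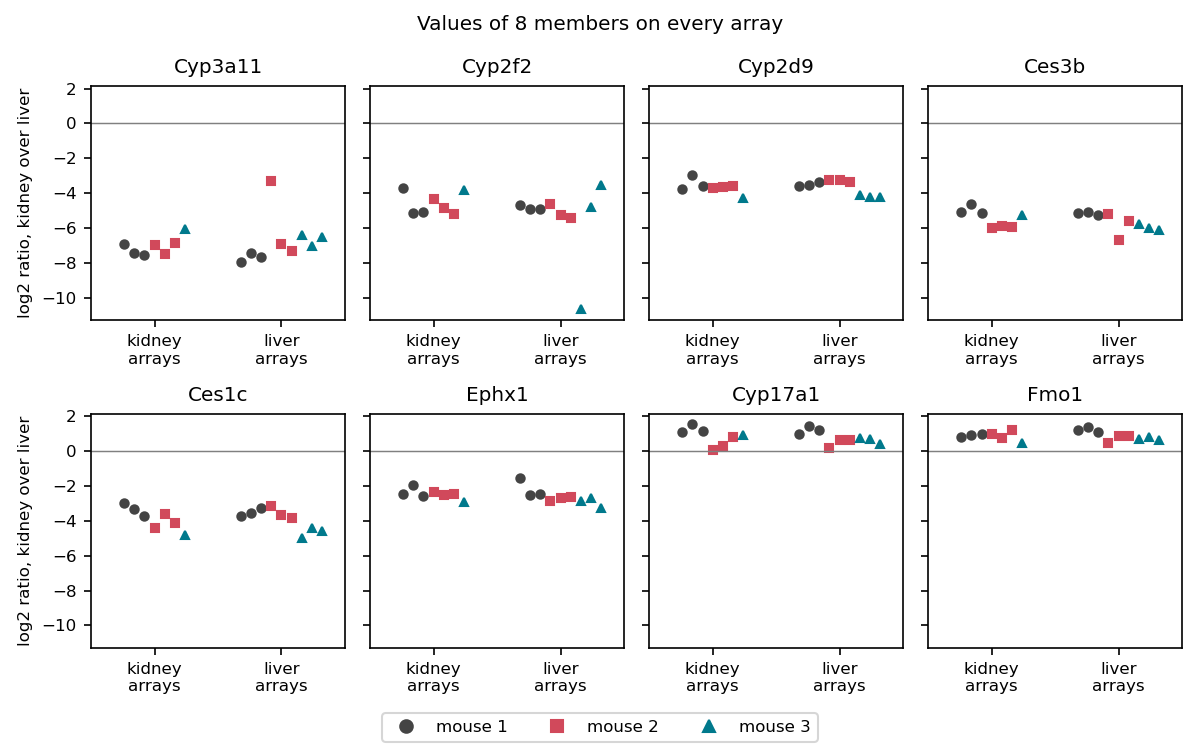
Kidney over liver log2 ratio (y axis) of 8 phase I genes on each of the 7 kidney arrays (left in each panel) and 9 liver arrays (right), with mice by symbol. Cyp3a11, Cyp2f2, Cyp2d9, Ces3b, Ces1c and Ephx1 lie below 0 on all 16 arrays, with single liver arrays of Cyp3a11 at -3.31 and of Cyp2f2 at -10.65, and Cyp17a1 and Fmo1 lie above 0 on all 16.

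Cyp2c70, the mouse enzyme that makes muricholic acids, was split by mouse. It lay between 1.04 and 1.88 on the 10 arrays of mice 1 and 3 and between -1.37 and -0.25 on the 6 arrays of mouse 2. The averages were 1.45, -0.33 and 1.24 on kidney arrays and 1.16, -0.74 and 1.06 on liver arrays. No value of mouse 2 reached those of the other mice. The same held for 54.7% of the 5222 genes with 16 values, so this split was common in the series. As deposited the estimate of 0.64 did not pass (SE 0.35, limma adjusted p = 0.198). With each array centred it was 1.09 (adjusted p = 0.000413), and it was 1.09 (adjusted p = 0.00754) with the mouse as a block on centred arrays. Cyp2s1, a P450 of epithelia, had a near-zero estimate of -0.06 (SE 0.36) as deposited and 0.50 with centred arrays (adjusted p = 0.0315), a call that was lost with the mouse as a block on centred arrays (0.48, adjusted p = 0.234). Cyp1b1, which oxidises oestrogens and polycyclic aromatic hydrocarbons mainly outside the liver, had 0.11 (SE 0.20, adjusted p = 0.657), with all 16 values between -0.22 and 0.43.

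Of the 5 carboxylesterases, 4 were lower in kidney and Ces1f did not pass. Ces3b, a lipid-hydrolysing esterase of mouse liver, had -5.98 to -4.61 on the kidney arrays (median -5.26) and -6.69 to -5.09 on the liver arrays (median -5.61). The estimate was -5.52 (SE 0.23, limma adjusted p = 1.52e-06), 45.7 times higher in liver, the second largest difference of the set. Ces1c, the esterase that mouse liver secretes into plasma, had -4.81 to -2.95 on the kidney arrays (median -3.71) and -4.96 to -3.13 on the liver arrays (median -3.73), with an estimate of -3.98 (SE 0.28), 15.8 times higher in liver. These ranges overlapped between the kinds of arrays and stayed far from 0. Ces2a had -2.09 to -0.69 on the kidney arrays (median -1.19) and -2.20 to -0.98 on the liver arrays (median -1.61), and an estimate of -1.44 (SE 0.23, limma adjusted p = 0.00381). Ces1e, known as egasyn, which holds beta-glucuronidase in the endoplasmic reticulum, had -2.05 to -0.35 on the kidney arrays (median -1.10) and -1.74 to -0.59 on the liver arrays (median -1.21). Its estimate of -1.26 (SE 0.25, adjusted p = 0.0111) did not pass with centred arrays (adjusted p = 0.0599) or with the mouse as a block (adjusted p = 0.0671). With mouse 2 aligned by signal the estimate of Ces1e was -1.16 and passed (adjusted p = 0.0012).

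Ces1c, Ces1e and Ces1f lie in the same gene cluster, with 1 protein-coding gene between Ces1c and Ces1e and none between Ces1e and Ces1f, and their estimates ran from -3.98 for Ces1c to 0.26 for Ces1f. Ces1f had an estimate of 0.26 (SE 0.26, adjusted p = 0.439). On the arrays of mouse 2 it lay between 0.68 and 1.26, and on those of mice 1 and 3 between -0.39 and 0.34, so the mouse 2 values did not overlap with the others. The difference between mice passed for Ces1f on both kinds of arrays, as deposited (limma moderated F, adjusted p = 0.000335 on kidney arrays and 0.000378 on liver arrays) and with mouse 2 aligned by signal (0.00193 and 0.000574). Cyp4f13 and Cyp4f14 are direct neighbours, and Cyp4f13 had -2.30 (SE 0.20) with all values between -2.89 and -1.97, while Cyp4f14 had -0.21 (SE 0.22, adjusted p = 0.448) with all values between -0.86 and 0.47. The values of these neighbours did not overlap, and the difference between genes was not tested.

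**Figure D4:**
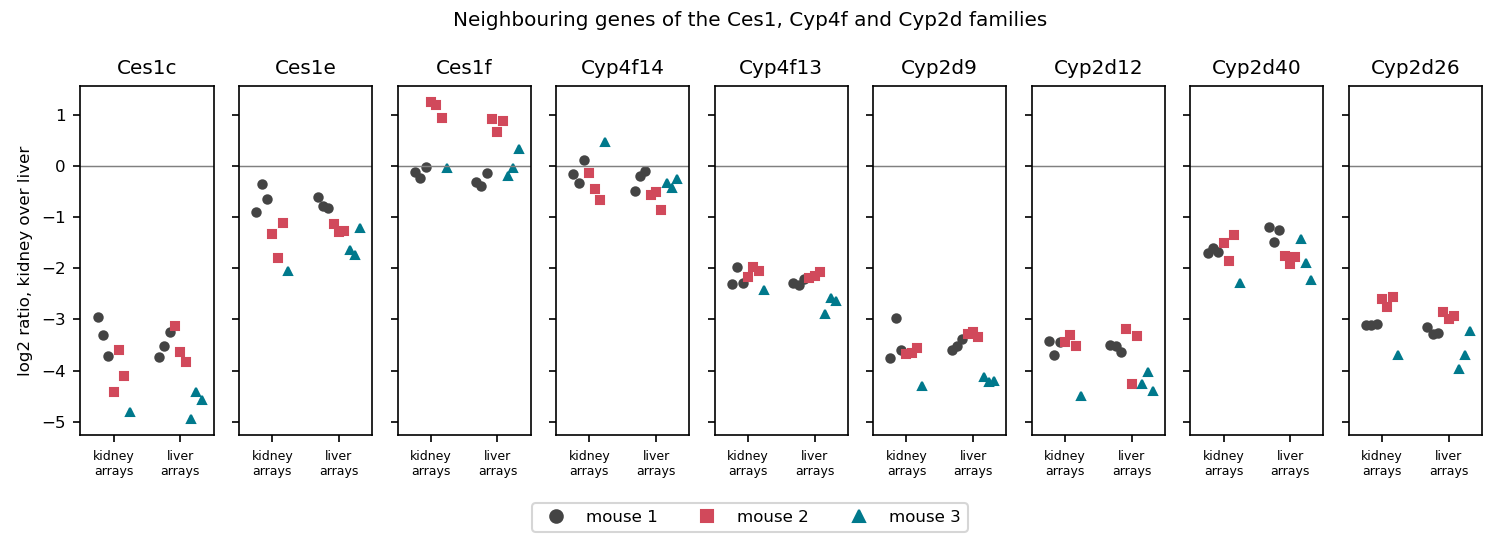
Kidney over liver log2 ratio (y axis) on kidney arrays (left in each panel) and liver arrays (right) for genes that lie close to each other in the Ces1, Cyp4f and Cyp2d clusters, with mice by symbol. Ces1c lies at or below -2.95 on all arrays while Ces1f lies around 0, with the 6 values of mouse 2 between 0.68 and 1.26, and all 4 Cyp2d genes lie below 0.

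Among the 5 P450s of fatty acid metabolism, 2 were lower in kidney and 3 did not pass, with a median of -0.42. Cyp4f13 had -2.42 to -1.97 on the kidney arrays (median -2.17) and -2.89 to -2.08 on the liver arrays (median -2.28), and its level was 4.91 times higher in liver (limma adjusted p = 0.00011). Cyp4f18, which oxidises leukotriene B4 in mouse neutrophils, had -2.41 to -0.85 on the kidney arrays (median -1.70) and -2.36 to -1.65 on the liver arrays (median -2.03), with an estimate of -1.86 (SE 0.21). Both lay below 0 on every array. Cyp4a14, a fatty acid hydroxylase and target of the peroxisome proliferator receptor alpha, had -0.33 (SE 0.32, adjusted p = 0.434), and Cyp2j9, a P450 of arachidonic acid metabolism, had -0.42 (SE 0.36, adjusted p = 0.38) with values on 11 arrays.

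Of the P450s of bile acid and sterol synthesis, Cyp7b1, the oxysterol hydroxylase of the alternative bile acid pathway, was lower in kidney. It had -2.51 to -1.30 on the kidney arrays (median -1.89) and -2.71 to -1.59 on the liver arrays (median -2.21), with an estimate of -2.09 (SE 0.22, limma adjusted p = 0.000329), 4.27 times higher in liver. Cyp51, the lanosterol demethylase of cholesterol synthesis in all tissues, had -0.49 (SE 0.35, adjusted p = 0.294). Its values were -0.28 to 0.26 in mice 1 and 3 and -1.95 to -1.42 in mouse 2. All arrays of mouse 2 lay below the others, as for 54.7% of the 5222 genes with 16 values.

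Of the 4 P450s of steroid and retinoid metabolism, 1 was higher in kidney and 3 did not pass. Cyp17a1, which makes androgen precursors in the gonads and adrenal, had 0.09 to 1.54 on the kidney arrays (median 0.90) and 0.17 to 1.47 on the liver arrays (median 0.72). The averages were 1.25, 0.41 and 0.90 on kidney arrays and 1.22, 0.49 and 0.64 on liver arrays. All 16 values lay above 0, and the estimate was 0.82 (SE 0.22, limma adjusted p = 0.0439), 1.76 times higher in kidney. With the mouse as a block the adjusted p was 0.281, and it was 0.255 without mouse 1 and 0.195 without mouse 3. With centred arrays the estimate was 1.27 (adjusted p = 0.00113, and 0.00888 with the mouse as a block), and with mouse 2 aligned by signal it was 1.20 (adjusted p = 0.000274). Cyp11a1, which cleaves the side chain of cholesterol in the same steroid-forming cells, had -0.61 (SE 0.37, adjusted p = 0.234), and Cyp21a1, a hydroxylase of adrenal steroid synthesis, had -0.44 (SE 0.21, adjusted p = 0.171). Of 4 adrenal markers with a test, Scarb1 was higher in kidney at 0.91 (adjusted p = 0.0175), and Star, Hsd3b1 and Nr5a1 had -0.59, -0.90 and -0.66 and did not pass. Cyp26b1, which degrades retinoic acid, had -0.93 (SE 0.37, adjusted p = 0.126).

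Fmo1, the flavin monooxygenase that oxidises nitrogen and sulfur atoms of drugs, was the other gene with a higher level in kidney. It had 0.48 to 1.19 on the kidney arrays (median 0.90) and 0.49 to 1.36 on the liver arrays (median 0.84), and averages of 0.91, 0.97 and 0.48 on kidney arrays and 1.23, 0.74 and 0.69 on liver arrays. Every array lay above 0, and mouse 3 (0.48 to 0.78) lay below mouse 1 (0.83 to 1.36). The estimate was 0.84 (SE 0.21, limma adjusted p = 0.0305), 1.79 times higher in kidney. The adjusted p was 0.276 with the mouse as a block, 0.222 without mouse 1 and 0.167 without mouse 3. With centred arrays the estimate was 1.29 (adjusted p = 0.00658, and 0.0246 with the mouse as a block), and with mouse 2 aligned by signal it was 0.93 (adjusted p = 0.00057). As deposited, mouse 2 minus the other mice was 0.03, so Fmo1 carried little of the offset that centring takes out.

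Both epoxide hydrolases were lower in kidney as deposited. Ephx1, the microsomal enzyme that detoxifies epoxides of drugs, had -2.92 to -1.91 on the kidney arrays (median -2.46) and -3.24 to -1.55 on the liver arrays (median -2.70), with an estimate of -2.59 (SE 0.22, limma adjusted p = 7.71e-05), 6.0 times higher in liver. Ephx2, the soluble enzyme that hydrolyses epoxides of arachidonic acid, had -1.06 to -0.53 on the kidney arrays (median -0.76) and -1.24 to -0.34 on the liver arrays (median -0.75). Its estimate was -0.80 (SE 0.21, limma adjusted p = 0.0368) as deposited, -0.35 with centred arrays (adjusted p = 0.379), and the adjusted p was 0.289 with the mouse as a block. With mouse 2 aligned by signal the estimate of Ephx2 was -0.41 and did not pass (limma adjusted p = 0.222). Aox3, a liver aldehyde oxidase of the mouse, did not pass at -0.50 (SE 0.29, adjusted p = 0.222), and its values recurred exactly on 90% of arrays, a mark of dim probes described next.

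Among these genes, calls were rarer where values recurred more often. Raw intensities were not used, and signal was judged by how often a gene's value recurred exactly among the values of its array, over the arrays of mice 1 and 3, since small whole-number intensities give few distinct ratios. The share is read from the ratio itself, and a ratio far from most others also seldom recurs. A tie between this share and the calls is therefore partly built in. Of 17 genes whose values recurred on at most 10% of arrays, 15 were called. Of 7 genes between 10% and 50%, 3 were called, and of 8 genes over 50%, none was. The same shares over all genes are not given, so these counts describe the set alone. Cyp2j9 had too few values for a share. The 8 genes over 50% were Aox3, Cyp11a1, Cyp26b1, Cyp2a12, Cyp2a22, Cyp2s1, Cyp4a14 and Cyp51, and for them the missing call may not be read as an equal level in both organs.

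The offset of mouse 2 moved with the share of recurring values as well. Mouse 2 minus the other mice had a median of 0.08 over the 17 genes with at most 10% recurring values (range -0.54 to 1.08) and of -1.59 over the 8 genes with more than 50% (range -1.89 to -0.82), against -1.20 over all genes. The offset thus lay on both sides of 0 in the genes with few recurring values and below 0 in all 8 genes with many. Aligning mouse 2 to the others within classes of signal gave a median of -0.34 for the 33 genes and -0.02 for all genes.

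**Figure D5:**
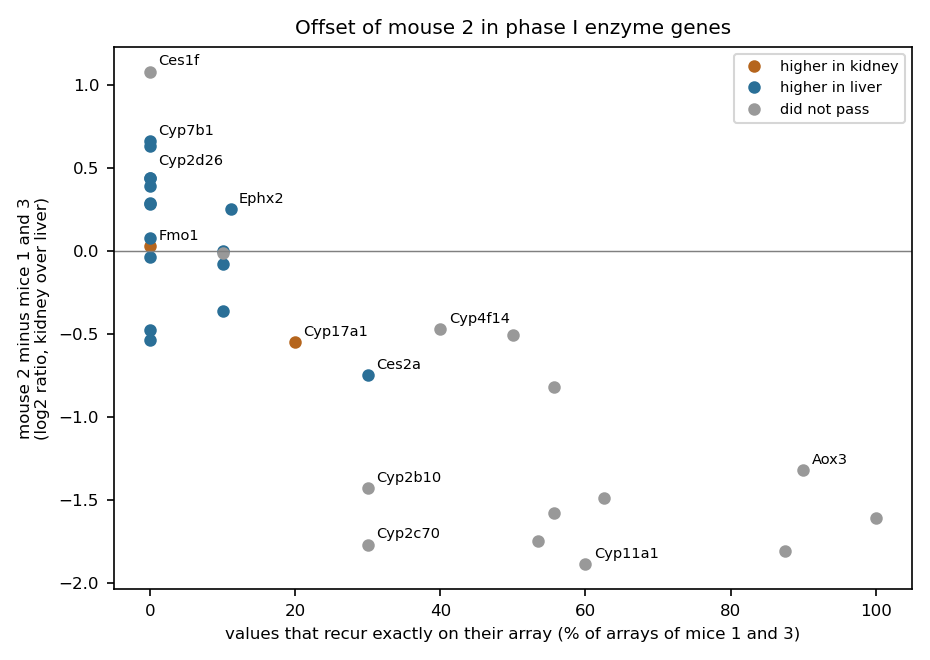
Mouse 2 minus mice 1 and 3 (y axis, difference of kidney over liver log2 ratios) against the percentage of arrays of mice 1 and 3 on which a gene's value recurs exactly (x axis) for the 32 genes with a share, coloured by call. Genes at or below 10% have a median of 0.08 and genes above 50% a median of -1.59, and Ces1f is the highest at 1.08.

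The mice were then compared within each organ under 3 scalings, by limma's moderated F with Benjamini-Hochberg adjustment. Repeat hybridisations of the same RNA measure technical spread alone, so a call compares the arrays of these RNA samples and does not describe groups of animals. Many of these calls changed with the scaling. Centring takes the median of mouse 2 from every gene, also from genes with few recurring values, which barely carry its offset, and the deposited values leave the offset in the dim genes. Cyp1b1, for example, passed with centred arrays (adjusted p = 0.000482 on kidney arrays and 4.74e-05 on liver arrays) but not as deposited (0.575 and 0.202) or with mouse 2 aligned by signal (0.263 and 0.145). On the kidney arrays, 20 of 30 genes with a test passed with centred arrays, where 49% of all genes did, 19 as deposited, where 75% did, and 14 with mouse 2 aligned, where 35.7% did. On the liver arrays, 20 of 32 passed with centred arrays, where 42.1% of all genes did, 25 as deposited, where 87% did, and 16 with mouse 2 aligned, where 35% did. Ces1c, Ces1e, Ces1f, Cyp2d12, Cyp2d26 and Cyp7b1 passed under all 3 scalings on both kinds of arrays. With mice 1 and 3 alone on the centred liver arrays, which leaves the offset of mouse 2 out, none of 32 genes passed, where 0.585% of all genes did. In that comparison 13 of the 32 had an unadjusted p under 0.05, and the lowest limma adjusted p was 0.0577, for Ces1c. The unadjusted share over all genes is not given, so the count of 13 cannot be read as an excess.

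Some genes set a mouse apart on every array of both organs without centring. Among the 26 genes with values on all 16 arrays, 3 (Ces1f, Cyp2d26 and Cyp7b1) had all 6 arrays of mouse 2 above the other 10, where 0.651% of 5222 genes with 16 values did. Another 5 (Aox3, Cyp11a1, Cyp2b10, Cyp2c70 and Cyp51) had all 6 below the other 10, as 54.7% of all genes did. All 4 arrays of mouse 3 lay below the other 12 for Ces1c, Cyp2d9 and Cyp4f13, and for 1.42% of all genes. These shares over all genes carry the offset of mouse 2, whose median over all genes was -1.2. With that offset, few genes can have mouse 2 above the others or mouse 3 below them. The counts of members are therefore not read as an excess. Cyp2d26 ran from -2.98 to -2.55 in mouse 2 and from -3.97 to -3.09 in mice 1 and 3, and Cyp7b1 ran from -1.87 to -1.30 in mouse 2 and from -2.71 to -1.89 in the others. Cyp2d9 ran from -4.29 to -4.12 in mouse 3, against -3.75 to -2.96 in mouse 1 and -3.68 to -3.25 in mouse 2. More of a transcript in the kidney of a mouse raises the ratio on its kidney arrays alone, as the other sample there is a liver pool. Less in its liver raises the ratio on its liver arrays alone. A shift shared by both kinds of arrays can come from opposite changes in both organs of a mouse or from a technical reason, and these cannot be told apart.

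The kind of array made no difference that passed. The term that sets kidney arrays against liver arrays called 0 of the 33 genes and 0% of all genes (limma, Benjamini-Hochberg), and 0 of the 33 had an unadjusted p under 0.05. Its estimates lay between -0.50 and 1.00, with a median size of 0.18, and the highest was that of Cyp2f2, whose liver array at -10.65 enters it. Without a mouse block, spread between mice enters the error of this term, so a small difference between array kinds could go uncalled. With the mouse as a block on kidney over liver, the term also called 0 of the 33 genes, and the share over all genes is not given for that fit.

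The wider phase I system was read from lists of genes that serve or control these enzymes. Of 13 tested genes of electron transfer and haem supply, 2 were lower in kidney and 11 did not pass. The 2 were Pgrmc1, a haem-binding partner of P450s, at -2.83 (SE 0.20, limma adjusted p = 2.9e-05), and Cyb5r3, the reductase of cytochrome b5, at -1.83 (SE 0.20, adjusted p = 0.000432). Alas1, the first enzyme of haem synthesis, had -0.50 (SE 0.39, adjusted p = 0.34). The share over all genes was 8.88% lower in kidney as deposited. With centred arrays 2 of the 13 were higher and 2 lower in kidney, where 19.5% of all genes were higher and 12.4% lower, so these counts were close to those of all genes.

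Of 10 tested regulators, 3 were lower in kidney, where 8.88% of all genes were, and 1 was higher, where 5.56% of all genes were. Nr1i2, the pregnane X receptor that drives Cyp3a genes, had -1.81 (SE 0.22, limma adjusted p = 0.000791), Nr0b2, the small heterodimer partner of bile acid signalling, had -1.66 (SE 0.28, adjusted p = 0.00489), and Rxra, the shared partner of these receptors, had -0.81 (SE 0.20, adjusted p = 0.0319). Hnf4a, a nuclear receptor of hepatocytes and proximal tubule, was higher in kidney at 1.37 (SE 0.21, adjusted p = 0.00252). The call of Rxra was lost with centred arrays (adjusted p = 0.3), where 3 regulators were higher and 3 lower in kidney (19.5% and 12.4% of all genes), and with the mouse as a block 1 was higher and 2 were lower (2.83% and 4.78% of all genes).

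Of 11 tested phase I enzymes outside the set, 5 were lower in kidney, where 8.88% of all genes were, and 6 did not pass. Pon1, the paraoxonase that liver secretes into plasma, had -4.88 (SE 0.20, limma adjusted p = 1.39e-06), Maob, a monoamine oxidase, had -2.15 (SE 0.23, adjusted p = 0.000371), and Xdh, the xanthine oxidoreductase, had -1.31 (SE 0.28, adjusted p = 0.0151). With the mouse as a block 2 of the 11 were lower in kidney (4.78% of all genes), and with centred arrays 4 were lower and 1 was higher (12.4% and 19.5% of all genes).

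Kidney and liver arrays with the same mouse number came from the same animal. With the mouse as a block on the deposited values, 14 of the 33 genes were lower in kidney (42.4%, against 4.78% of 8984 genes) and neither Fmo1 nor Cyp17a1 passed, where 2.83% of all genes were higher in kidney. The calls lost were Ces1e, Ephx2, Fmo1 and Cyp17a1. In that fit 7514 of the 8984 genes shared the same SE of 0.454, so it sorted genes by the size of their ratio. With the mouse as a block on centred arrays, 14 of the 33 were lower in kidney, where 5.38% of all genes were, and 3 were higher (Fmo1, Cyp17a1 and Cyp2c70), where 11.9% of all genes were.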

How the data were processed

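From each sample, 20 µg of total RNA was reverse transcribed, labelled with a Cy3 or Cy5 dye and hybridised to cDNA arrays. Per the labels, GenePix Pro gave mean intensities less background, and the ratios were normalised to a median of 1. The deposited values are log2 ratios, a base that the labels do not give: ratios of whole numbers up to 10 matched 140 of 144 spacings between frequent values as log2 (tolerance 1e-04), 0 as natural log and 16 as log10. Dye and numerator are not given in the sources used here, so values were turned to kidney over liver by the markers. Had the titles' order held, every direction would be exchanged. The median of 1 did not hold on the arrays of mouse 2.

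Of 20419 probes, 11723 had 1 gene symbol in the platform annotation, 806 several and 7890 none, and 11590 of the first matched a RefSeq gene. Probes of a gene, then hybridisations of a mouse and organ, were averaged. The 6 averages were fitted with limma 3.58.1 (R 4.3.3), using a mean and an array kind term, for the 9047 genes measured in 2 or more mice of each organ, with two-sided p-values adjusted by Benjamini-Hochberg at 0.05. The fit was run on simulated data whose averages were drawn independently. That simulation holds no correlation between the organs of a mouse, so it cannot show how such a correlation affects the p-values. The moderated F of limma on single arrays compared mice, with centred arrays as the main scaling. The number of arrays limits the precision, and the pools give no spread.

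As single sample over pool, the deviations of mice 1, 2 and 3 on kidney arrays correlated with those on liver arrays at -0.591, -0.795 and -0.585 (14688 probes, which are not independent). The main fit has no mouse block, and these deviations correlate positively as kidney over liver. Its p-values for kidney over liver therefore tend to be too small, and those of its array kind term too large. Members and gene lists were chosen with earlier results of these data known. Values are given for up to 4 called genes per role with the largest estimates, and the 3 called genes per wider list and direction with the largest estimates are named. Figures were drawn with matplotlib 3.10.9.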

Additional observations from a re-analysis of the deposited data

Results flagged for a closer look

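A sample far from the others in its group was found in 4 of 66 groups of arrays. Chance gives about 1 in 20 for independent arrays. These groups hold repeat arrays of 3 mice, so that rate is not a fair measure here. Cyp3a11 had -3.31 on a liver array of mouse 2 (2d), against -7.96 to -6.38 on the other liver arrays. Cyp2f2 had -10.65 on a liver array of mouse 3 (3b), against -5.45 to -3.52. Cyp2d12 had -4.51 on the kidney array of mouse 3 (3a), against -3.70 to -3.31 on the other kidney arrays, and Ephx1 had -1.55 on a liver array of mouse 1 (1d), against -3.24 to -2.45. Array 3a is the only kidney array of mouse 3. For Cyp2d12 the liver arrays of that mouse had -4.26, -4.02 and -4.40, against -4.26 to -3.20 on those of mice 1 and 2. Whether the array or the mouse was set apart was not tested. Without arrays 2d and 3b, which were chosen after seeing the data, the counts of 2 genes higher and 16 lower in kidney were the same and the median was -0.91.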

How the results depend on the processing

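Of the 16 genes lower in kidney, 13 passed in each of 16 settings that gave them a value; Ces1e, Ephx2 and Ces2a did not, the last without mouse 3 (adjusted p = 0.0649) and on kidney arrays alone (adjusted p = 0.166). Neither gene higher in kidney passed in all settings. The number higher in kidney was 4 with centred arrays, with mouse 2 aligned and with arrays scaled to the same spread, 1 with each probe on its own, 0 on kidney arrays alone, 0 on liver arrays alone, 0 with the replicate block on the deposited values and 3 with the replicate block on centred arrays. Leaving out a mouse gave 0 (without mouse 1 or mouse 3) to 3 genes higher and 13 to 16 lower in kidney, and medians of -1.31 to -1.0. Apart from the centred and block fits, shares over all genes are not given for these settings, nor without arrays 2d and 3b. Those counts are therefore not set against all genes. The median was -1.59 with dim probes left out, over 26 genes. Cyp2s1 reversed to 0.50 with centred arrays, 0.58 with mouse 2 aligned and 0.51 with scaled arrays. Cyp2c70 passed at 1.23 without mouse 2 (adjusted p = 0.000206). With mouse 2 aligned by signal, a setting chosen after seeing the data, 14 genes differed between mice on kidney arrays and 16 on liver arrays. With mice 1 and 3 alone, 0 genes differed between mice on the liver arrays. The causes were not tested, beyond the fewer mice or arrays of these fits. Of 512 values of single genes under an alternative, 473 kept direction and side of the threshold, 30 lost it, 6 gained it and 3 reversed; values that passed in neither fit were counted as kept, and 27 of 215 such values had the other sign. Dim probes limit what the uncalled genes can show.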
